A study of Mus musculus with 2 samples.

Results

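The translation initiation and elongation factors are the soluble proteins that place a ribosome on an mRNA and move it along the reading frame. They were taken as all genes with a symbol that starts with Eif1 to Eif6 or Eef, without the Eif2ak kinases, and with a probe set that the platform annotation assigns to a single gene. The rule found 49 genes, with 110 probe sets, among 12393 named genes. The brightest probe set by mean log2 signal stood for each gene. Of the 68 protein-coding symbols that the rule matches in RefSeq, 4 (Eef1g, Eif3j1, Eif3j2 and Eif4a3) lay only on probe sets annotated with several genes and were given no value. Others, among them Eif1, Eif2s1 and Eif4g1, had no probe set annotated to them alone and were not analysed here.

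RNA came from unstimulated eosinophils (gated as CD11b+, CD11c intermediate, MHCII- and SiglecF+) and from dendritic cells (gated as CD11c+ and MHCII+). Both were sorted from the lamina propria, the connective tissue layer under the gut epithelium, of the small intestine of C57BL/6 mice aged 8 weeks. Each population was measured on 1 array, so there was no replicate error and no test could be made. The number of mice behind each sort was not stated in the labels.

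Initiation begins when eIF2 brings the initiator tRNA to the small ribosomal subunit, with eIF1, eIF1A, eIF3 and eIF5 bound to it. The cap-binding complex eIF4F then recruits the mRNA, and eIF5B joins the large subunit. In elongation, eEF1A delivers each aminoacyl-tRNA and eEF2 drives the ribosome forward by a codon. Signalling acts on these steps through phosphorylation of eIF2, which blocks its exchange factor eIF2B, through the eIF4E-binding proteins and through the eEF2 kinase.

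Values are MAS5 signals in array units. Signals under 134.7 units, the median over all probe sets and arrays, were raised to that floor. Where 1 array lay under the floor the ratio is a lower bound, written as "at least", and a gene under it on both arrays counts as not measured. The 3' to 5' signal ratio of the array's actin control was 6.38 in eosinophils and 9.0 in dendritic cells, and that of Gapdh was 9.81 in eosinophils and 6.58 in dendritic cells. Of 7 eosinophil markers, 6 were above the floor in eosinophils and 1 in dendritic cells. Their summed signal was 34862 units in eosinophils against 665 units in dendritic cells. The granule gene Prg2 was under the floor on both arrays. Of 9 dendritic cell markers, 4 were above the floor in eosinophils and 9 in dendritic cells, with sums of 6035 units in eosinophils against 130122 units in dendritic cells. Macrophage markers (3 of 7 above the floor in eosinophils, 5 of 7 in dendritic cells) summed to 1968 units in eosinophils against 12145 units in dendritic cells. T, NK and innate lymphoid markers (4 of 6 in eosinophils, 3 of 6 in dendritic cells) summed to 875 units in eosinophils against 4869 units in dendritic cells, where Cd8a, a gene also used by a dendritic cell subset, gave 3732 units. Stromal and endothelial markers (3 of 4 above the floor in eosinophils, 1 of 4 in dendritic cells) summed to 1103 units in eosinophils against 424 units in dendritic cells. For neutrophil markers (2 of 4 and 1 of 4) the sums were 470 and 252 units. For epithelial markers (2 of 6 on each array) they were 781 and 779 units, and for mast cell and basophil markers (0 of 6 and 1 of 6) 377 and 716 units. No B or plasma cell marker was above the floor on either array. The part of other cell types in the differences was not tested.

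The translation factors were mostly brighter in dendritic cells. Of the 49 genes, 47 were measured. Of these, 3 were 2-fold or more brighter in eosinophils (6.38%) and 18 were 2-fold or more brighter in dendritic cells (38.3%). Over all 7994 measured genes, 19.0% were 2-fold or more brighter in eosinophils and 15.5% in dendritic cells. At 4-fold, 2 translation factors were brighter in eosinophils and 5 in dendritic cells, or 4.26% and 10.6% of the measured ones. The same 4-fold share over all genes was 5.35% in eosinophils and 5.35% in dendritic cells. The median log2 difference, eosinophil minus dendritic cell, was -0.58 for the translation factors and 0.16 for all measured genes. A lower signal is a lower share of the array's total: fewer cells with the RNA and less RNA per cell cannot be told apart.

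**Figure D1:**
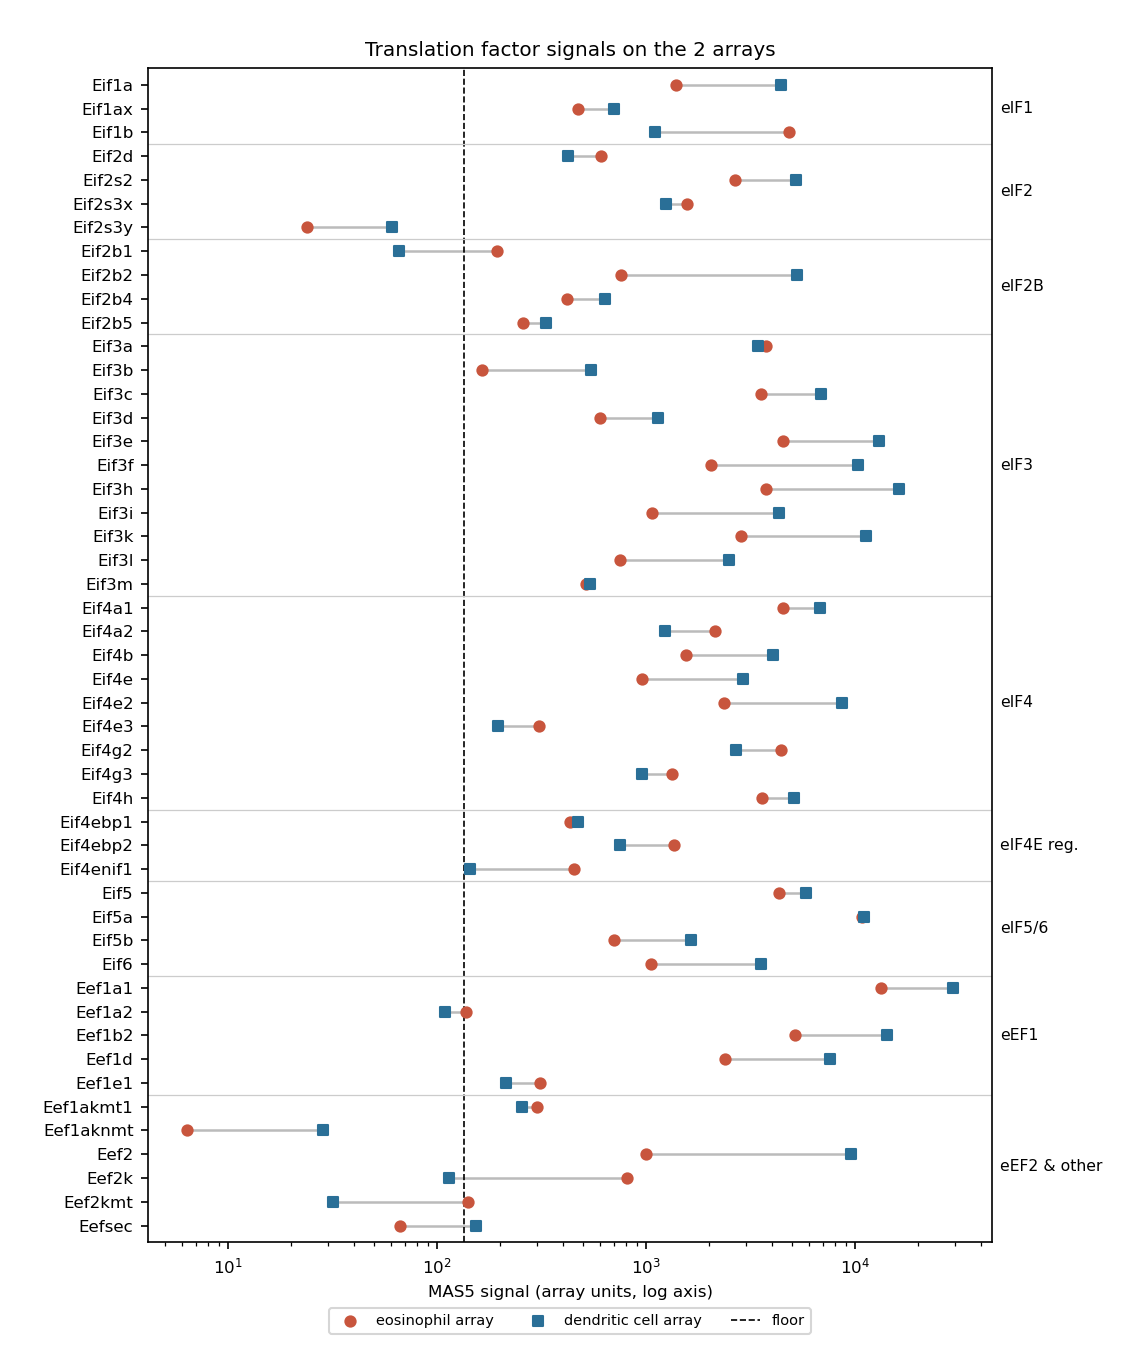
MAS5 signal (array units, log axis) of all 49 translation factors on the eosinophil array (circles) and the dendritic cell array (squares), ordered by role, with the floor of 134.7 units dashed. Most squares lie to the right of their circles; the 3 factors past 2-fold the other way after flooring are Eif1b, Eef2k and Eif4enif1, and Eif2s3y and Eef1aknmt lie under the floor on both arrays.

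The factors past 2-fold in dendritic cells had mostly strong signals. Among the 30 translation factors with a mean signal of 1000 units or more, 1 was 2-fold or more brighter in eosinophils and 17 in dendritic cells (56.7%), with a median log2 difference of -1.30. All 1970 genes with such signals had a median of 0.03, and 22.7% of them were 2-fold or more brighter in dendritic cells. Among the 17 dimmer translation factors, 2 were 2-fold or more brighter in eosinophils and 1 in dendritic cells, and the median was 0.02. The dimmer genes of the whole array had a median of 0.18. The mean uses both arrays, and 5 of the 17 (Eef2, Eif2b2, Eif3l, Eif4e and Eif5b) had under 1000 units in eosinophils, so the difference itself helped to place them and the split is a description.

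**Figure D2:**
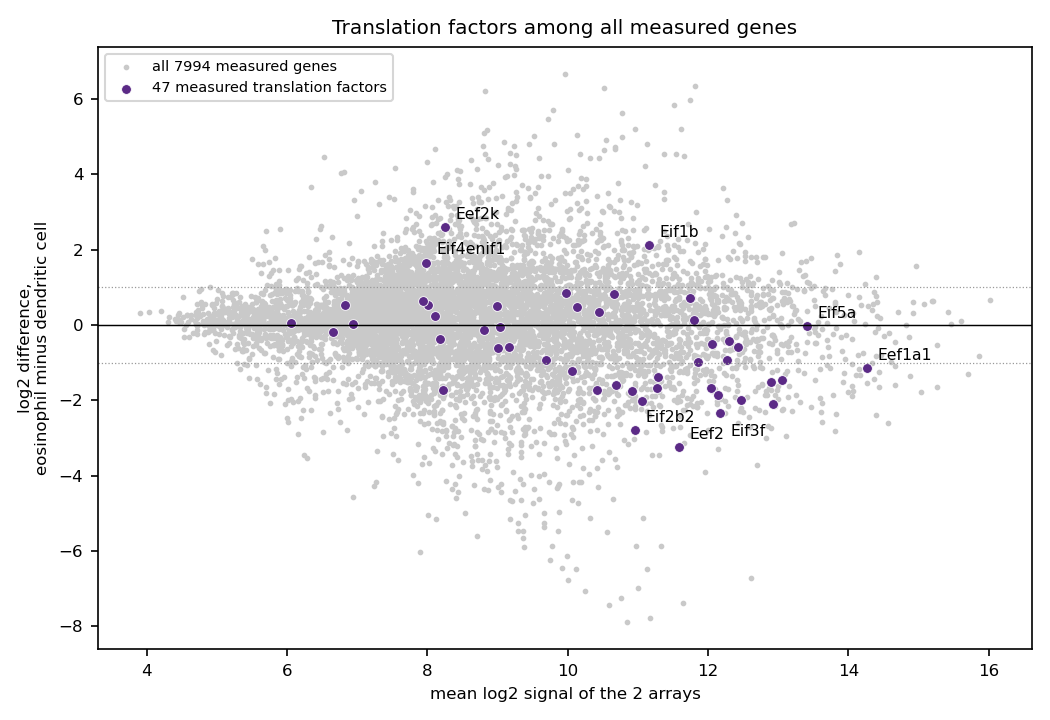
Log2 difference (eosinophil minus dendritic cell) against mean log2 signal for all 7994 measured genes (grey) and the 47 measured translation factors (purple); dotted lines mark 2-fold. The bright translation factors lie mostly below 0, with Eef2 lowest at -3.25, while Eef2k (2.59, a lower bound) and Eif1b (2.12) lie highest.

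The spread these data hold is that between probe sets of a gene. For translation factors above the floor on both arrays the pooled SD of log2 differences was 0.55, over 65 probe sets of 23 genes, against 0.73 for all genes. Of the 11 factors 2-fold or more brighter in dendritic cells that had 2 or more measured probe sets, 8 had all of them brighter in dendritic cells, and 5 had all of them past 2-fold: Eef1d, Eif1a, Eif2b2, Eif3i and Eif4b. In Eif3e, Eif3l and Eif4e2 another probe set was brighter in eosinophils. The 3 factors 2-fold or more brighter in eosinophils each had a single measured probe set, as did Eef2.

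Many vertebrate mRNAs for translation factors and ribosomal proteins begin with a C followed by an unbroken run of C and T bases, the terminal oligopyrimidine tract, through which mTOR and the RNA-binding protein Larp1 control their translation. On a textbook list of such mRNAs, 10 genes had a probe set of their own (Eef1g and Rack1 had none). Of the 10, 9 were 2-fold or more brighter in dendritic cells (90.0%), against 15.5% of all measured genes. The median log2 difference of the list was -1.60, against 0.16 for all genes, and 8 of the 10 are translation factors already counted here. The remaining genes on the list were Pabpc1 and Tpt1. These windows show the sense strand around the annotated start, 60 bases before it and 30 from it on, for 6 genes 2-fold or more brighter in dendritic cells, for Eif2s3x, which was under 2-fold apart, and for Eif1b, brighter in eosinophils. The sequences are those of RefSeq, build GRCm38.p6. Capitals mark each run of a C followed by at least 4 bases of C or T that begins no more than 5 bases before the start or anywhere after it.
Eif3f (chr7:108934355-108934444, plus strand): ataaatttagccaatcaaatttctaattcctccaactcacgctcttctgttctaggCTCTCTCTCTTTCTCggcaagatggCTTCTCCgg
Eif3l (chr15:79075163-79075252, plus strand): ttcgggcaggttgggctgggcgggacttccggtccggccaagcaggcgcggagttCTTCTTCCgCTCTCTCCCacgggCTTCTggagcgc
Eif2b2 (chr12:85219421-85219510, plus strand): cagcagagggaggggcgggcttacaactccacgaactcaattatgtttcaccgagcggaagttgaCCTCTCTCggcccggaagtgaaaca
Eif3k (chr7:28981859-28981948, minus strand): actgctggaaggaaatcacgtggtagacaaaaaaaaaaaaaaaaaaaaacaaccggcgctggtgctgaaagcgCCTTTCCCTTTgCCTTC
Eef2 (chr10:81176571-81176660, plus strand): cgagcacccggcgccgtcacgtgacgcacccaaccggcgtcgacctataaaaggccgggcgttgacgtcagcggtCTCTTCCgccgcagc
Eif4b (chr15:102073713-102073802, plus strand): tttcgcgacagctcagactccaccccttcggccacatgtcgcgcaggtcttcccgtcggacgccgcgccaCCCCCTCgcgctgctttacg
Eif2s3x (chrX:94212622-94212711, minus strand): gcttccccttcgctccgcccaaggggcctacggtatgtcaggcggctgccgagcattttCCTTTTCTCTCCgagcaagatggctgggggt
Eif1b (chr9:120492546-120492635, plus strand): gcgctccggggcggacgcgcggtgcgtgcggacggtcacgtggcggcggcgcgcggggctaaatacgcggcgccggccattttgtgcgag

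In these windows Eif3f has a run of 15 bases that begins 4 bases before the annotated start. In Eif3l the runs lie on both sides of it, in Eif2b2 the run begins 5 bases after it, and in Eef2 the run ctcttcc begins 15 bases after it. Eif1b has no such run in the window. The printed windows are examples and do not stand for either side. Eef1b2 (also on the textbook list), Eif4e and Eif5b, each 2-fold or more brighter in dendritic cells, have no such run in theirs. Of the factors brighter in eosinophils, Eif4enif1 has such a run at each of its 4 annotated starts and Eef2k at some of its starts. An annotated start need not be the capped end of the mRNA in these cells. Of 39 translation factors with a promoter in the table, 8 (20.5%) had a run that began within 5 bases of an annotated start, against 20.2% of the 9887 array genes with a promoter. The 8 comprised 5 of the 12 factors with a promoter that were 2-fold or more brighter in dendritic cells (Eef1a1, Eif2b2, Eif3b, Eif3f and Eif3l), 2 of the other 25 measured factors (Eif2s3x and Eif4enif1) and the unmeasured Eif2s3y. Runs of 8 bases or more that began between 5 bases before and 22 bases after the start were found in 9 of the 39 (23.1%), against 10.7% of array genes. This second window was set after the sequences had been seen. A run is a match of letters, and these counts are a description.

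The eIF1 genes, which keep the small subunit open for scanning and check the start codon, went in different directions. Eif1b, a close relative of the scanning factor eIF1, gave 4792 units in eosinophils against 1100 units in dendritic cells, 4.36-fold apart. A difference this far towards eosinophils was reached by at least 376 of 7994 genes (4.70%), since floored values are bounds. Eif1a gave 1390 units in eosinophils against 4400 units in dendritic cells. Its probe sets gave log2 differences of -1.20 and -1.66. Eif1a and its X-linked counterpart Eif1ax encode forms of eIF1A, and the brighter Eif1a probe set is of a kind (suffix _s_at) that can detect related transcripts. Eif1ax gave 469 units in eosinophils against 699 units in dendritic cells, with its probe sets at -0.58 and 0.29. The 3 genes therefore held both a dendritic cell excess and an eosinophil excess past 2-fold.

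The eIF2 genes serve in delivery of the initiator tRNA and were all under 2-fold apart on the deposited scale with the chosen probe sets. Eif2s2, the beta subunit, gave 2649 units in eosinophils against 5219 units in dendritic cells (1.97-fold), and all 5 of its measured probe sets were brighter in dendritic cells, from -0.35 to -1.64. Eif2s3x, the X-linked gene of the gamma subunit, gave 1560 units in eosinophils against 1239 units in dendritic cells, with probe sets from -0.53 to 1.13. Its Y-linked copy Eif2s3y was under the floor on both arrays, at 23.7 units in eosinophils against 60.7 units in dendritic cells. Eif2d, a factor that can deliver tRNA to the ribosome in place of eIF2, gave 606 units in eosinophils against 424 units in dendritic cells. Eif2s2 was past 2-fold after median centring (-1.21) and after spike centring (-2.02), and spike centring put Eif2d (-0.53) and Eif2s3x (-0.71) on the dendritic cell side. The chosen Eif2s3x probe set has the suffix _x_at. Without _s_at and _x_at probe sets Eif2s3x was past 2-fold in eosinophils (1.13).

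The eIF2B complex recharges eIF2 with GTP, and 4 of its subunit genes were measured. Eif2b2, the beta subunit, was the furthest apart, with 758 units in eosinophils against 5261 units in dendritic cells (6.94-fold). The chosen Eif2b2 probe set has the suffix _x_at, which marks possible cross-hybridisation, and without such probe sets the log2 difference of -2.79 became -1.90 or lower, a bound since the probe set then used was under the floor in eosinophils. Eif2b4, the delta subunit, gave 418 units in eosinophils against 635 units in dendritic cells. Eif2b5, the catalytic epsilon subunit, gave 256 units in eosinophils against 330 units in dendritic cells. Both were under 2-fold apart. Eif2b1, the alpha subunit, gave 194 units in eosinophils and was under the floor in dendritic cells at 65.9 units, at least 1.44-fold brighter in eosinophils. The subunits of this complex thus lay on both sides of 0.

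The eIF3 subunits, a large scaffold on the small ribosomal subunit, held the most dendritic cell excess of the initiation groups by count. Of 11 measured subunits, none was 2-fold or more brighter in eosinophils and 7 were 2-fold or more brighter in dendritic cells, 3 of them past 4-fold. These were 63.6% and 27.3% of the subunits, against 15.5% and 5.35% of all measured genes. The median log2 difference of the subunits was -1.72, with a range from -2.34 to 0.13. Eif3f gave 2043 units in eosinophils against 10350 units in dendritic cells (5.07-fold). Eif3h, which like Eif3f carries an MPN domain, gave 3743 units in eosinophils against 16133 units in dendritic cells (4.31-fold), and its second measured probe set, under the floor in eosinophils, gave a log2 difference of -0.46 or lower. Eif3i, a WD-repeat subunit, gave 1059 units in eosinophils against 4290 units in dendritic cells (4.05-fold), and its probe sets gave -2.02 and -2.41. These 3 subunits were past 4-fold as deposited, but Eif3h (-1.84) and Eif3i (-1.98) were not after quantile normalization, nor was Eif3h (-1.85) after loess.

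Eif3k gave 2848 units in eosinophils against 11246 units in dendritic cells, 3.95-fold apart. Eif3b, the subunit that binds Eif3i, gave 164 units in eosinophils against 542 units in dendritic cells (3.30-fold), close to the floor in eosinophils. Eif3l gave 752 units in eosinophils against 2476 units in dendritic cells (3.29-fold), with other probe sets at -0.05 and at least 0.34. Eif3e, also known as Int6, gave 4508 units in eosinophils against 12934 units in dendritic cells (2.87-fold), and a dim probe set gave at least 0.92. The remaining subunits were under 2-fold apart. Eif3c gave 3552 units in eosinophils against 6818 units in dendritic cells, and its 3 other probe sets lay past 2-fold, from -1.08 to -1.42. Eif3d, a subunit that can itself bind caps, gave 600 units in eosinophils against 1143 units in dendritic cells. Eif3a, the largest subunit of the complex, gave 3749 units in eosinophils against 3425 units in dendritic cells, but its other probe sets lay between -0.56 and -1.14. Eif3m gave 515 units in eosinophils against 537 units in dendritic cells. The chosen probe sets thus put Eif3a and Eif3m nearly level while most subunits were past 2-fold.

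**Figure D3:**
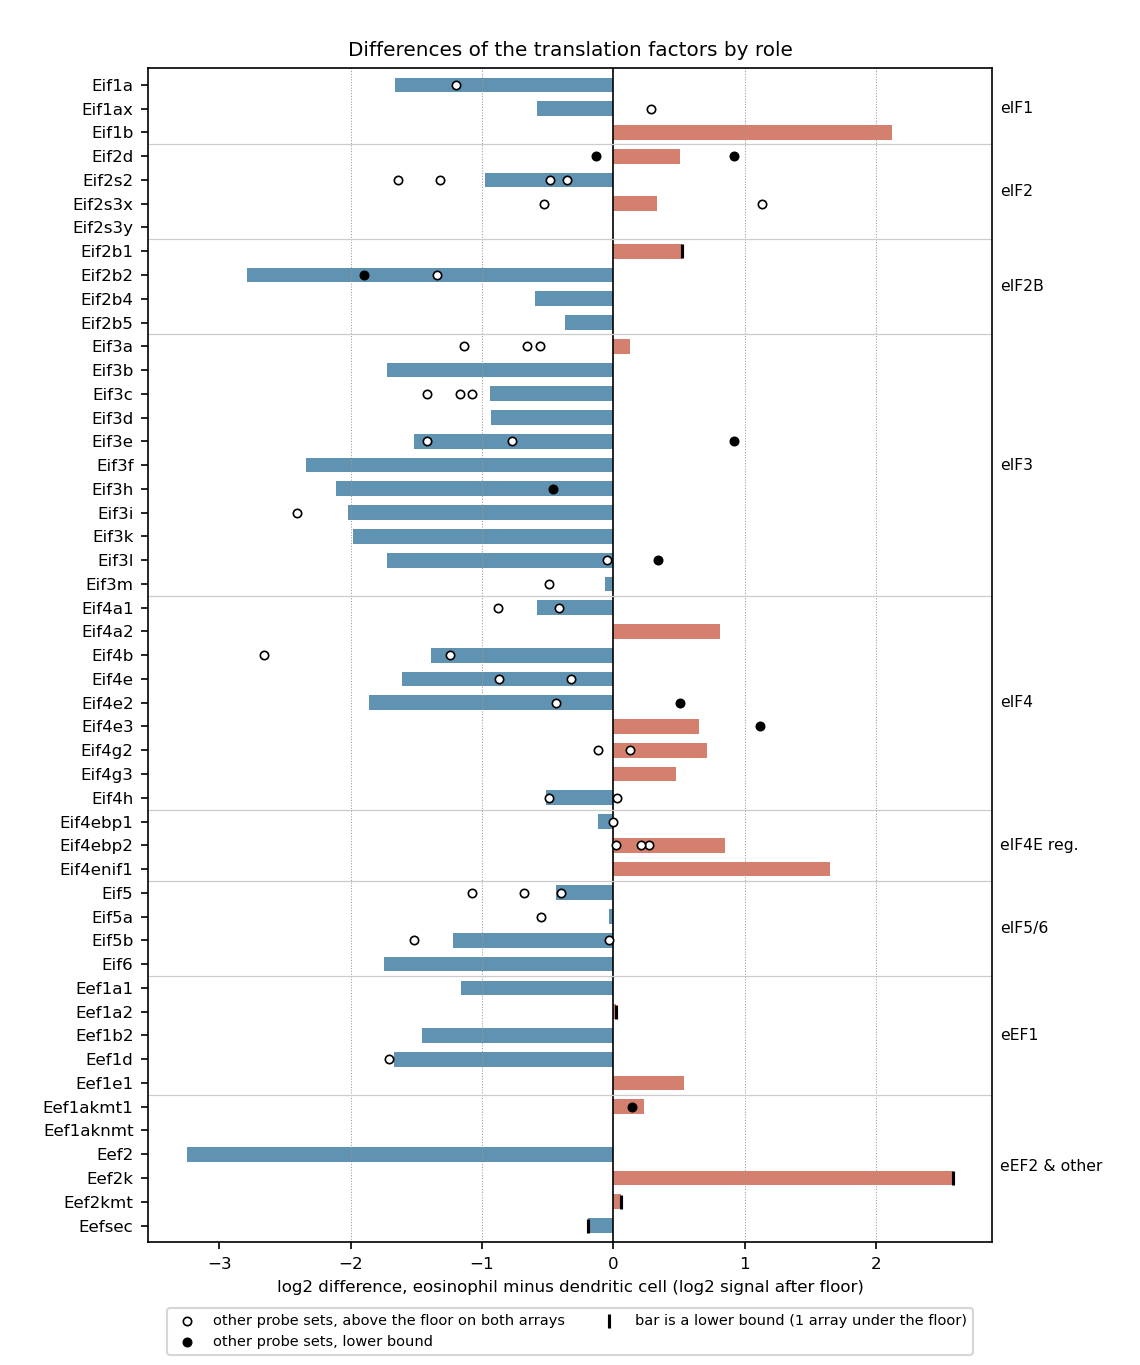
Log2 difference (eosinophil minus dendritic cell) of each measured translation factor by role (bars), with its other measured probe sets as circles (open where above the floor on both arrays, filled where a lower bound) and bars that are lower bounds marked by a black tick; dotted lines mark 2-fold and 4-fold. The eIF3 and eEF1 bars point mostly to dendritic cells, whereas the eIF4 bars point both ways and Eef2 and Eef2k point in opposite directions.

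In the eIF4 group, the genes lay on both sides of 0. Of 9 measured genes, none was 2-fold or more brighter in eosinophils and 3 were 2-fold or more brighter in dendritic cells (33.3%). The shares over all measured genes were 19.0% and 15.5%. Eif4e, the cap-binding protein, gave 950 units in eosinophils against 2894 units in dendritic cells (3.05-fold), with its other probe sets at -0.32 and -0.87. Eif4e2, a cap-binding relative that serves in repression, gave 2366 units in eosinophils against 8587 units in dendritic cells (3.63-fold), with other probe sets at -0.44 and at least 0.51. Eif4b, which stimulates the eIF4A helicase, gave 1547 units in eosinophils against 4044 units in dendritic cells (2.61-fold), and all 3 of its probe sets were past 2-fold. These 3 were the eIF4 genes with a dendritic cell excess past 2-fold.

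The helicase Eif4a1 gave 4521 units in eosinophils against 6756 units in dendritic cells (1.49-fold). Its paralog Eif4a2, linked to repression of mRNAs as well as to initiation, gave 2142 units in eosinophils against 1223 units in dendritic cells (1.75-fold). The 2 helicase genes lay on opposite sides of 0, each under 2-fold. Eif4g3, a scaffold that bridges eIF4E and eIF3, gave 1329 units in eosinophils against 955 units in dendritic cells. Eif4g2, also called DAP5, which lacks the eIF4E-binding part, gave 4405 units in eosinophils against 2689 units in dendritic cells. Its other measured probe sets gave -0.12 and 0.13. The mean of all its probe sets (-0.48) was on the dendritic cell side. That mean includes a probe set under the floor on both arrays, at 8.10 units in eosinophils against 50.3 units in dendritic cells. Eif4e3, another cap-binding relative, gave 306 units in eosinophils against 196 units in dendritic cells, and its second probe set gave at least 1.12. Eif4h, a helicase partner like Eif4b, gave 3575 units in eosinophils against 5087 units in dendritic cells. The probe sets of Eif4h all have the suffix _s_at or _x_at. All of these genes were under 2-fold apart on the chosen probe sets. The eosinophil side of Eif4a2, Eif4e3, Eif4g2 and Eif4g3 turned to the dendritic cell side when the arrays were centred on the hybridisation spikes.

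Of the 3 measured eIF4E regulators, 1 passed 2-fold towards eosinophils and none did towards dendritic cells. The shares over all measured genes were 19.0% and 15.5%. Eif4enif1, or 4E-T, which carries eIF4E into the nucleus and to P-bodies, gave 449 units in eosinophils against 143 units in dendritic cells (3.13-fold). Its dendritic cell signal was near the floor, and the log2 difference of 1.65 became 0.61 with spike centring. Eif4ebp2, a repressor that holds eIF4E until mTOR phosphorylates it, gave 1353 units in eosinophils against 751 units in dendritic cells (1.80-fold), and its other 3 measured probe sets lay between 0.02 and 0.27. It turned to the dendritic cell side with spike centring. Eif4ebp1 gave 431 units in eosinophils against 469 units in dendritic cells, with both measured probe sets within -0.12 and 0.00.

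Factors of subunit joining and ribosome maturation were level or brighter in dendritic cells. Eif6, which keeps the subunits apart and serves in large subunit maturation, gave 1055 units in eosinophils against 3544 units in dendritic cells (3.36-fold). Eif5b, the GTPase of subunit joining, gave 704 units in eosinophils against 1638 units in dendritic cells (2.33-fold), with probe sets from -0.03 to -1.52. Eif5, which triggers GTP hydrolysis by eIF2, gave 4310 units in eosinophils against 5836 units in dendritic cells (1.35-fold), and its 4 probe sets lay between -0.40 and -1.08. Eif5a, the hypusine-bearing factor that helps ribosomes past difficult peptide bonds, gave 10785 units in eosinophils against 11042 units in dendritic cells, or 1.02-fold. Eif5a was thus nearly level at a strong signal, with a second probe set at -0.55. Its probe sets have the suffixes _s_at and _x_at, so Eif5a has no value when such probe sets are left out.

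The elongation factor eEF1 genes were brighter in dendritic cells where the signal was strong. Eef1a1, which brings aminoacyl-tRNA to the ribosome, gave 13228 units in eosinophils against 29461 units in dendritic cells (2.23-fold), but was under 2-fold apart after quantile normalization and after loess. Its exchange factor subunits followed: Eef1b2 gave 5129 units in eosinophils against 14102 units in dendritic cells (2.75-fold). Eef1d gave 2372 units in eosinophils against 7566 units in dendritic cells (3.19-fold), and its second measured probe set gave -1.71. All 3 were past 2-fold in the same direction. Eef1a2, the form known from muscle and neurons, was at the floor in eosinophils with 137 units and under it in dendritic cells with 109 units. Eef1e1, a scaffold protein of the tRNA synthetase complex rather than an elongation factor, gave 310 units in eosinophils against 214 units in dendritic cells.

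Eef2, the translocase, had the widest difference of all 47 measured factors after flooring, and the gene of its inhibitory kinase had the widest in the other direction. Eef2 gave 999 units in eosinophils against 9489 units in dendritic cells, 9.50-fold apart, a difference towards dendritic cells that at least 131 of 7994 genes (1.64%) reached. Eef2k, which phosphorylates eEF2 and slows elongation, gave 812 units in eosinophils, whereas the 114 units in dendritic cells lay under the floor. It was at least 6.03-fold brighter in eosinophils, with the bound set by the floor. Each rests on 1 probe set. Eef2kmt, which methylates eEF2, was at the floor in eosinophils (140 units) and under it in dendritic cells (31.7 units). Eef1akmt1, which methylates eEF1A, gave 299 units in eosinophils against 255 units in dendritic cells. Eefsec, the selenocysteine-specific elongation factor, was under the floor in eosinophils (66.4 units) and near it in dendritic cells (154 units). Eef1aknmt was under the floor on both arrays.

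Other parts of the translation apparatus were set beside these factors. For comparison, 19.0% of all measured genes were 2-fold or more brighter in eosinophils and 15.5% in dendritic cells. Cytosolic ribosomal protein genes leaned further to dendritic cells, with none of 45 measured genes 2-fold or more brighter in eosinophils, 30 2-fold or more brighter in dendritic cells (66.7%) and a median log2 difference of -1.49. Of 72 mitochondrial ribosomal protein genes, 11 were 2-fold or more brighter in eosinophils and 18 in dendritic cells, with a median of -0.19. Of 18 cytosolic aminoacyl-tRNA synthetases, which charge tRNAs, none was 2-fold or more brighter in eosinophils and 7 were in dendritic cells, with a median of -0.65. The furthest apart was Nars, with 521 units in eosinophils against 2740 units in dendritic cells (5.26-fold). Farsb followed with 183 units in eosinophils against 751 units in dendritic cells. The 5 measured mitochondrial translation factors had a median of 0.01, and only Mtif2 was past 2-fold, at least 2.09-fold brighter in eosinophils.

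**Figure D4:**
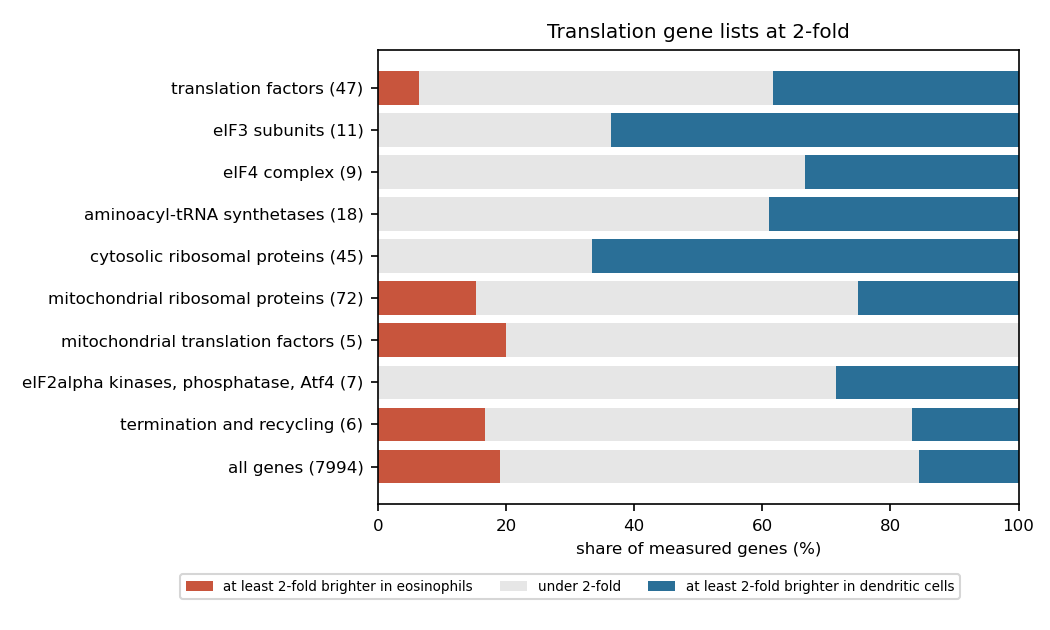
Share of measured genes in each list (number in brackets) that were 2-fold or more brighter in eosinophils (red), under 2-fold apart (grey) or 2-fold or more brighter in dendritic cells (blue), with all 7994 measured genes at the bottom. The blue share is 38.3% for the translation factors, 66.7% for cytosolic ribosomal proteins and 15.5% for all genes.

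Genes that act on the factors held differences in both directions. The 2 MNK kinases, which phosphorylate eIF4E on its eIF4G scaffold, opposed each other. Mknk1 gave 1415 units in eosinophils against 245 units in dendritic cells (5.77-fold). Mknk2 gave 3788 units in eosinophils against 13716 units in dendritic cells (3.62-fold), and its second probe set gave -1.24. Of 5 measured kinases on this list, 2 were 2-fold or more brighter in eosinophils and 1 in dendritic cells (40.0% and 20.0%). The shares over all measured genes were 19.0% and 15.5%. Rps6ka3, an S6 kinase relative that can phosphorylate eIF4B, counted among the 2 kinases brighter in eosinophils, but its probe sets ran from -2.15 to 1.50. Mtor gave 288 units in eosinophils against 537 units in dendritic cells (-0.90), while its second measured probe set, with 1 array under the floor, gave -2.91 or lower.

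Of 7 genes around eIF2 phosphorylation, none was 2-fold or more brighter in eosinophils and 2 were in dendritic cells (28.6%). The shares over all measured genes were 19.0% and 15.5%. Ppp1r15a, or GADD34, which directs a phosphatase to eIF2, gave 184 units in eosinophils against 1245 units in dendritic cells (6.77-fold). The heme-regulated kinase Eif2ak1 gave 353 units in eosinophils against 1056 units in dendritic cells (2.99-fold). Eif2ak3, or PERK, the kinase of the endoplasmic reticulum, gave 1087 units in eosinophils against 562 units in dendritic cells. Atf4, a transcription factor whose translation rises when eIF2 is phosphorylated, gave 1997 units in eosinophils against 3921 units in dendritic cells. Eif2ak3 and Atf4 were just under 2-fold apart, on opposite sides.

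Of 7 poly(A)-binding proteins and partners, 1 was 2-fold or more brighter in eosinophils and 2 in dendritic cells (14.3% and 28.6%). The shares over all measured genes were 19.0% and 15.5%. Pabpc1, which joins the mRNA tail to eIF4G, gave 2594 units in eosinophils against 12983 units in dendritic cells (5.01-fold). Its partner Paip1, which promotes initiation, gave 932 units in eosinophils against 324 units in dendritic cells (2.87-fold). Paip2b, which inhibits poly(A)-binding protein, gave 671 units in eosinophils against 1865 units in dendritic cells (2.78-fold). Of 6 measured termination and recycling genes, the rescue GTPase Hbs1l gave 712 units in eosinophils against 178 units in dendritic cells (4.01-fold), with a second probe set at -0.06. The release factor Etf1 was 2.86-fold brighter in dendritic cells, with 1642 units in eosinophils against 4698 units in dendritic cells, and probe sets that ran from -1.52 to 0.57. The enzymes that make hypusine on eIF5A and diphthamide on eEF2 were under 2-fold apart in all 4 measured cases, and Dph2 and Dph7 were under the floor on both arrays.

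The translation factor median lay below 0 under each of the 4 other scalings tried. It was -0.81 after centring on the median, -0.58 after quantile normalization, -0.73 after loess and -1.62 after centring on 18 hybridisation spike probe sets, which were 2.06-fold brighter in eosinophils. On the spike scale the median of all genes was -0.63, so the translation factors lay 0.99 below it, as they lay 0.73 below all genes on the deposited scale. On the spike scale 2 translation factors were 2-fold or more brighter in eosinophils and 30 in dendritic cells, against 6.00% and 36.9% of all genes. Past 2-fold under each of these scalings were Eef2k and Eif1b in eosinophils and 17 factors in dendritic cells, among them Eef2, Eif2b2, Eif3f, Eif3h, Eif3i and Eif6. The exceptions were Eef1a1, at -0.58 with quantile normalization and -0.74 with loess, and Eif4enif1, at 0.61 with spike centring.

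**Figure D5:**
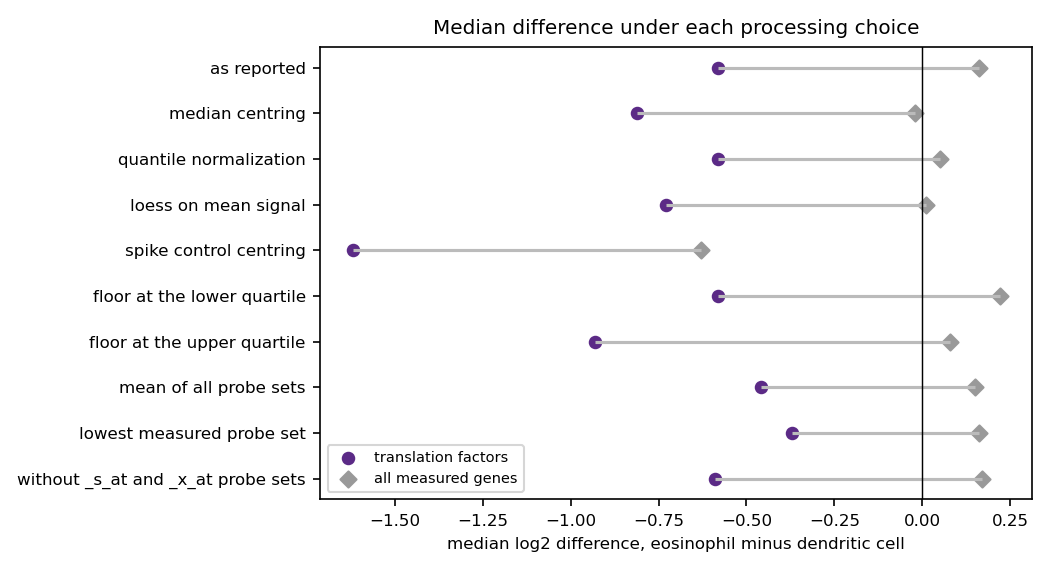
Median log2 difference (eosinophil minus dendritic cell) of the measured translation factors (circles) and of all measured genes (diamonds) under each processing choice. The translation factor median runs from -1.62 with spike control centring to -0.37 with the lowest measured probe set per gene, and lies left of all genes in each row.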

How the data were processed

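Sorted eosinophils and dendritic cells were each measured on 1 array. The values the authors deposited are linear signal intensities for each probe set, and the submitters' processing notes name MAS5 version 5.0. No genome build or detection call is given in the sources used here. The trimmed mean (2% off each end) was 500.2 units for eosinophils and 500.3 units for dendritic cells, so the intensities the authors deposited share a global scale.

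Of 22690 probe sets, 64 were controls and 20380 others were annotated to 1 gene by the platform table, which can hold outdated symbols. For 20351 of them the Entrez identifier was found in RefSeq (GRCm38.p6), and the RefSeq symbol was used. How many of these symbols differed from the platform's was not counted. Several genes were listed for 691, which were not named. Signals were floored at 134.7 units (the median of the pooled arrays) before log2. With 1 array per population no p-value was computed, and genes are counted past 2-fold and 4-fold. The number of arrays limits the precision.

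The members and gene lists were chosen with earlier results of these data known. Every member may be named, with full values for those furthest apart, for paralogs and for eIF4E regulators, and up to 4 genes of each surrounding list. Alternatives were 4 scalings, 2 floors and 3 probe set rules, of which leaving out _s_at and _x_at probe sets was added after seeing the data. Counting at 4-fold was tested on simulated data without a floor, with planted changes larger than 4-fold. With the floor, it was checked only that differences did not grow. The 2-fold counts were not tested this way. Python 3.11.15, pandas 2.3.3 and statsmodels 0.14.6 (loess, span 0.3) were used. Promoter letters are RefSeq's and were searched on the sense strand.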

Additional observations from a re-analysis of the deposited data

How the results depend on the processing

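The translation factor median stayed below 0 and below that of all genes under the 4 scalings, 2 floors and 3 probe set rules tried. No paired analysis was possible because each population had 1 array and no result comes from a test. With spike control centring the counts at 2-fold were 2 in eosinophils and 30 in dendritic cells, those at 4-fold were 0 in eosinophils and 19 in dendritic cells, and the median was -1.62. That centring lowers every difference alike before the floor, and over all genes it gave 489 in eosinophils and 3005 in dendritic cells at 2-fold, against 1519 and 1241 on the deposited scale. At 4-fold it gave 1.98% of all measured genes in eosinophils and 14.2% in dendritic cells. It turned 11 of 15 factors from the eosinophil to the dendritic cell side. At 4-fold, median centring left 1 factor in eosinophils, against 4.18% of all measured genes. Quantile normalization left 3 in dendritic cells, against 5.56% of all measured genes. The lower-quartile floor (41.4 units) gave 5 factors at 2-fold in eosinophils, since dim signals were let in. The upper-quartile floor (433 units) gave 1 at 2-fold and 1 at 4-fold in eosinophils, where Eef2k became at least 0.91 and Eif4enif1 at least 0.05 on the log2 scale, and Eif3b lost its place past 2-fold in dendritic cells (-0.33 or lower). The mean of all probe sets gave 13 factors at 2-fold in dendritic cells, against 18: Eef1d (-0.20), Eif3e (-0.62), Eif3h (-0.77), Eif3l (-0.44), Eif4e (-0.93), Eif4e2 (-0.19) and Eif5b (-0.92) fell short, and Eif2s2 (-1.09) and Eif3c (-1.15) were added. This mean takes in probe sets under the floor on both arrays, which Eef1d, Eif2s2, Eif3h and Eif4e2 each have. In Eef1d such a probe set gave 116 units in eosinophils against 16.9 units in dendritic cells. Its measured probe sets gave -1.67 and -1.71. Median centring added Eif2s2, Eif3c and Eif3d. In eosinophils, the mean of all probe sets gave 4 factors at 2-fold, with Eif4e3 added (at least 1.15). The lowest measured probe set gave 4 in eosinophils, again with Eif4e3 (at least 1.12), and 14 in dendritic cells. Under that rule Eif3h (-0.46 or lower), Eif4e (-0.32) and Eif5b (-0.03) fell short, while Eif3a (-1.14) and Eif3c (-1.08) were added. Without _s_at and _x_at probe sets the counts were 4 in eosinophils, with Eif2s3x (1.13) added, and 19 in dendritic cells. Eif3m, Eif4h and Eif5a then had no probe set left. Under the 2 floors and 3 probe set rules, 16.6% to 26.9% of all measured genes were 2-fold or more brighter in eosinophils. In dendritic cells that share lay between 13.1% and 19.0%. The upper-quartile floor put 4.88% of all measured genes past 4-fold in eosinophils. With the lowest measured probe set per gene, Eif3e (at least 0.92), Eif3l (at least 0.34) and Eif4e2 (at least 0.51) turned to eosinophils, on probe sets under the floor in dendritic cells; the cause was not tested. Signals near the floor limit the ratios of Eef1a2, Eef2k, Eef2kmt, Eefsec, Eif2b1, Eif3b and Eif4enif1.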

Other observations

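By chromosome, 6 of the 47 measured translation factors lie on chromosome 15 in RefSeq: Eef1d, Eif3d, Eif3e, Eif3h, Eif3l and Eif4b. Of these, 5 were 2-fold or more brighter in dendritic cells, whereas 17.7% of the 316 measured genes of that chromosome were. The 5 factors on chromosome 7 included 2 past 2-fold in dendritic cells, and 19.2% of the measured genes of that chromosome were. On chromosome 1, 3 of the 4 measured factors were, and 15.3% of its 463 measured genes. Over all chromosomes, 38.3% of the measured factors were past 2-fold in dendritic cells. These counts were made after the values had been seen.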
